A study of Oryza sativa Japonica Group with 9 samples.

Results

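The PHT1 family of rice consists of phosphate transporters of the plasma membrane, and its members found by name on the array, except PT11, are described here. They were chosen by gene name, from the synonyms PHT1;1, 1;2, 1;3, 1;4, 1;6, 1;7, 1;8 and 1;12, and not by their values. The rule found 8 of the 17905 genes paired with probe sets, and 14 of the 57258 probe sets compared. PT8 and PT3 had 3 probe sets each, PT1 and PT7 had 2 each, and PT2, PT4, PT6 and PT12 had 1 each. PT5, PT10 and PT13 had no probe set paired with them in the tables used. Members without such a synonym, and probe sets paired with several genes, were not examined. PHT1 proteins move phosphate into the cell together with protons. In roots that take up phosphate without a partner, members in the outer cell layers draw it from the soil, and others pass it on towards the shoot. In a mycorrhizal root phosphate also arrives through the fungus, and PT11 takes it up at the membrane around arbuscules. Whole-root studies in rice have described lower transcript levels of several uptake transporters, PT2 and PT6 among them, when roots are colonised.

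The samples were cortical cells cut by laser from roots of Nipponbare, a japonica rice, with about 2000 cells per sample taken as joined units. Arbusculated cells (3 arrays) held arbuscules of Rhizophagus irregularis, an arbuscular mycorrhizal fungus. Systemic cells (3 arrays) were uncolonised and lay next to arbusculated cells in the same kind of root. Mock cells (3 arrays) came from mock-inoculated roots. Inoculated plants had received 250 spores at planting, and all plants were harvested at 7 weeks. The plants of every group were fed a half-strength Hoagland solution every second day, set to 25 mM KH2PO4 as the labels write it. That unit could not be checked, and how much phosphate the plants held was not measured. The labels do not tie arrays to plants. The p-values then measure only the spread between these samples, which may be technical.

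Values are deposited log2 intensities per probe set, summarised with RMA, so a difference of 1 is a 2-fold difference. No detection calls were used, and the number of arrays per group limits the precision. Arrays correlated with the others of their group at a mean of 0.850 to 0.900 across probe sets. Mock 2 was closer to the arbusculated arrays (mean of 0.878) than to the other mock arrays (0.853). By smaller margins, mock 1 was closer to the systemic arrays (0.852) than to the other mock arrays (0.850). Likewise, systemic 3 was closer to the mock arrays (0.866) than to the other systemic arrays (0.860). The 3' minus 5' difference of rice control genes, a measure of RNA quality, was 0.78 ± 0.45 in arbusculated, 0.20 ± 0.32 in systemic and 0.32 ± 0.11 in mock cells (SD, n = 3). A larger value means a weaker signal from the 5' end, as poorer RNA gives. The interquartile range of an array's values was 2.23 to 2.46 in arbusculated, 2.22 to 2.28 in systemic and 2.22 to 2.43 in mock cells. Of the arbuscule markers, 1 of the 4 probe sets of PT11 stood at 9.43, 8.91 and 8.30 in arbusculated cells, against 3.55 to 4.37 in systemic and 3.56 to 4.20 in mock cells, and the other 3 did not pass. The ammonium transporter AMT3-1 was read only on the brighter of its 2 probe sets. On that probe set it was 1.01 ± 0.32 higher in arbusculated than in mock cells and did not pass in limma (adjusted p = 0.298).

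PT4, PT2, 2 of the 3 probe sets of PT8 and the brighter one of PT1 had their highest means in arbusculated cells. PT2 and the brighter probe set of PT1 were lowest in mock cells. All probe sets of PT3, PT6, PT7 and PT12 and the dimmer one of PT1 were lowest in arbusculated cells. None of these differences passed the test over all probe sets. The plot of values by group shows each of the 14 probe sets on the same axis. In a captured sample, fewer cells of a type and less RNA per cell cannot be told apart.

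**Figure D1:**
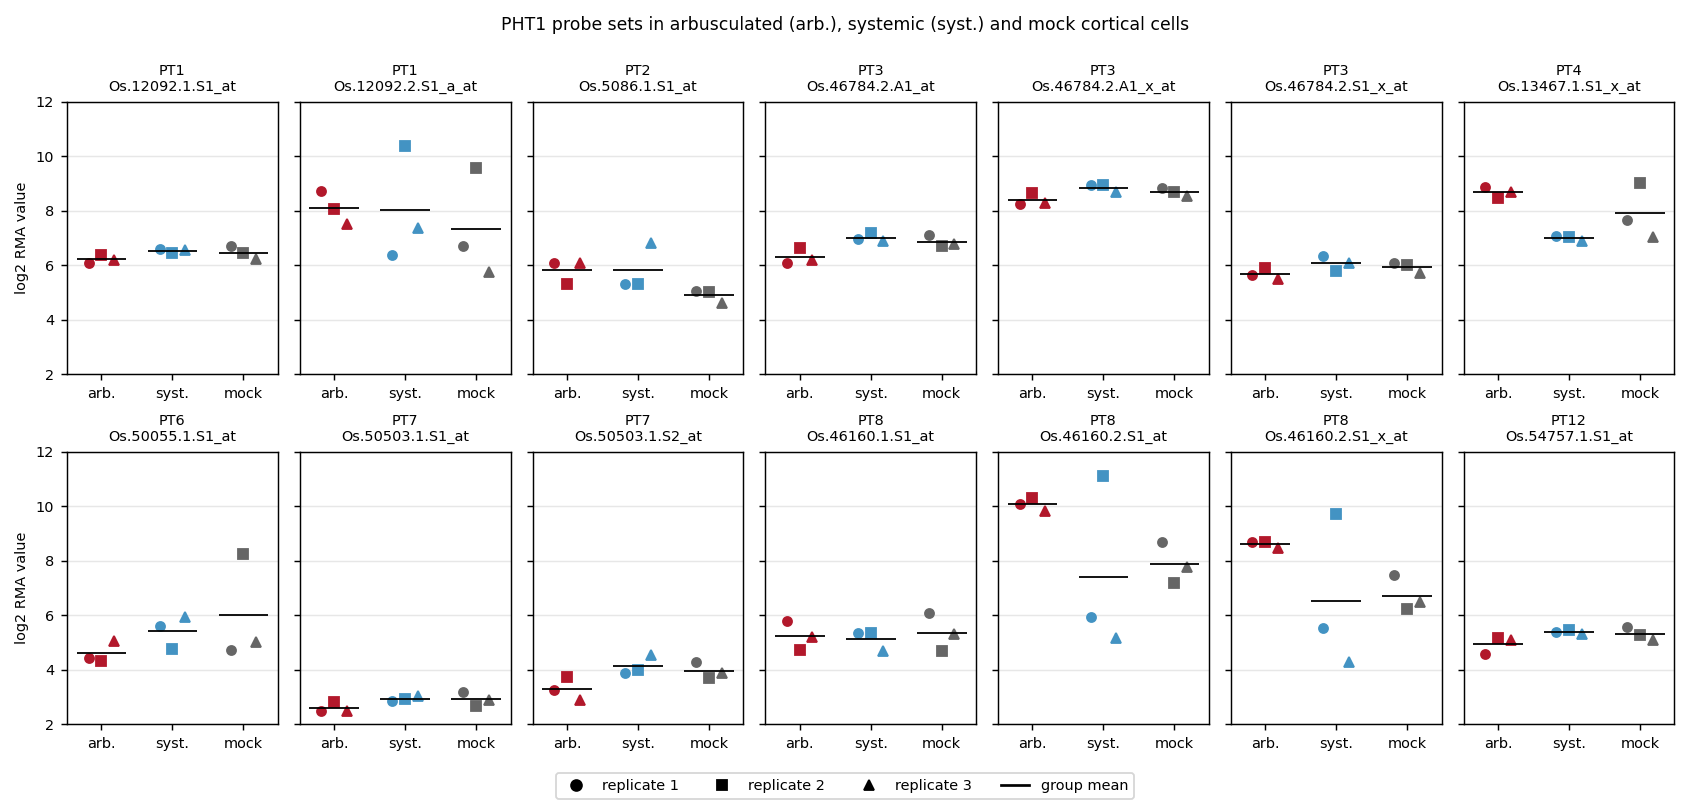
Log2 RMA value (y axis) of each PHT1 probe set in arbusculated, systemic and mock cells (x axis), with 1 point per array, its shape giving the replicate number, and a line at the group mean of 3 arrays. PT8 lay between 9.85 and 10.30 in arbusculated cells and between 5.17 and 11.10 in systemic cells on its brightest probe set, while the probe sets of PT3 and PT12 varied by at most 1.12 over all arrays.

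PT8 (LOC4348741) is a high-affinity transporter with a large share in phosphate uptake by rice roots. Its brightest probe set, Os.46160.2.S1_at, read 10.10, 10.30 and 9.85 in arbusculated cells. It read 5.94, 11.10 and 5.17 in systemic cells. It read 8.69, 7.20 and 7.78 in mock cells. All arbusculated arrays lay above all mock arrays, while systemic cells were split, with the array of systemic replicate 2 above all 8 others and the remaining systemic arrays below them. The group means were 10.09 ± 0.23 in arbusculated, 7.40 ± 3.23 in systemic and 7.89 ± 0.75 in mock cells (SD, n = 3). PT8 was 2.19 ± 1.33 higher in arbusculated than in mock cells (log2, SE; 95% interval -0.84 to 5.22; adjusted p = 0.439 in limma). It was 2.68 ± 1.33 higher than in systemic cells (interval -0.35 to 5.71; adjusted p = 0.247). Neither difference passed, and both intervals reach from slightly below 0 to more than 5 log2 units.

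The fit shares 1 estimate of the spread over the 3 groups, so the split among systemic arrays also widens the interval between arbusculated and mock cells. Without systemic 2 the difference between arbusculated and mock cells kept its value of 2.19, with an SE of 0.41 and an interval of 1.24 to 3.14. Its unadjusted p was then 0.000798 and its adjusted p 0.145, which is still not a call. Over systemic cells PT8 was 4.53 ± 0.46 higher without systemic 2 (interval 3.47 to 5.59; adjusted p = 0.0362), a call in a fit where 0.0629% of all probe sets passed. Of the 9 fits that left out 1 array each, this was the only one that called PT8, and in the others the difference was between 1.56, without systemic 3, and 2.80. Systemic differed from mock cells by -0.49 ± 1.33 on all arrays (interval -3.52 to 2.54) and by -2.34 ± 0.46 without systemic 2 (adjusted p = 0.79). The plot of fits with an array left out shows this for PT8 and PT4.

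**Figure D2:**
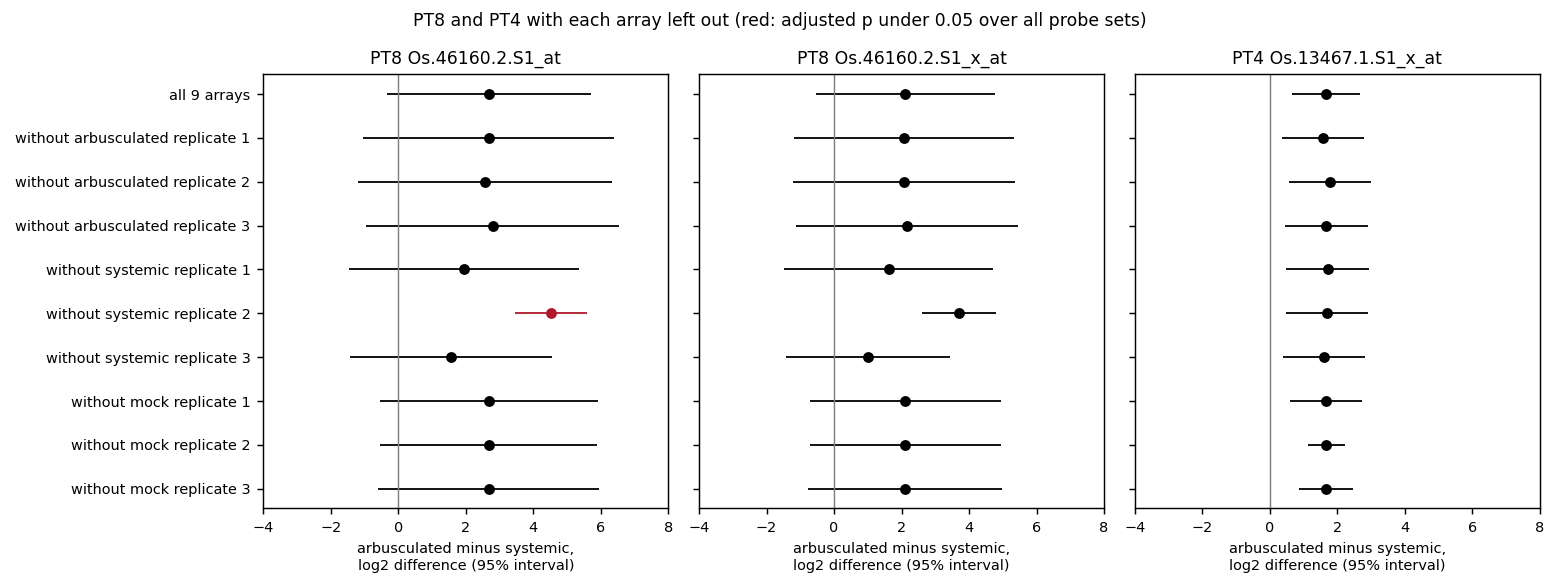
Log2 difference of arbusculated minus systemic cells (x axis) with its 95% interval for PT8 on Os.46160.2.S1_at and Os.46160.2.S1_x_at and for PT4 on Os.13467.1.S1_x_at, fitted on all 9 arrays and with each array left out (y axis). Leaving out systemic replicate 2 moved PT8 to 4.53 and 3.70, and PT4 stayed between 1.57 and 1.77 in all 9 fits.

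The other probe sets of PT8 tell how far this reading depends on the probes. Os.46160.2.S1_x_at, which carries the same design number, read 8.69, 8.70 and 8.49 in arbusculated, 5.55, 9.71 and 4.31 in systemic and 7.47, 6.23 and 6.48 in mock cells. It showed the same split, and over 9 arrays it followed Os.46160.2.S1_at with r = 0.99, though probes of the pair may overlap. It differed by 1.90 ± 1.16 from mock (adjusted p = 0.443) and by 2.10 ± 1.16 from systemic cells (adjusted p = 0.287), and by 3.70 from systemic cells without systemic 2 (adjusted p = 0.0685) but by 1.00 without systemic 3 (adjusted p = 0.591). Os.46160.1.S1_at read 5.79, 4.72 and 5.22 in arbusculated, 5.37, 5.37 and 4.69 in systemic and 6.07, 4.69 and 5.31 in mock cells. All groups overlapped on that probe set, and it followed Os.46160.2.S1_at only weakly (r = 0.32). The mean of the 3 probe sets of PT8 was 1.33 higher in arbusculated than in mock cells (adjusted p = 0.549) and 1.63 higher than in systemic cells (adjusted p = 0.347).

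Across the 9 arrays, higher levels of PT8 on its bright probe sets went with a larger 3' minus 5' difference, so with poorer RNA by this measure. The 3' minus 5' difference was 1.25, 0.73 and 0.36 on the arbusculated arrays, -0.07, 0.56 and 0.10 on the systemic arrays and 0.42, 0.34 and 0.20 on the mock arrays. Its r with Os.46160.2.S1_at was 0.74 over 9 arrays, which share groups, and systemic 2 was the highest systemic array on both measures. With Os.46160.2.S1_x_at r was 0.71, and with the dimmer Os.46160.1.S1_at only 0.30. The part of RNA quality in the level of PT8 was not tested. The sole measured root hair marker, the wall synthase CSLD1, was 3.36 to 6.69 in arbusculated, 3.37 to 3.90 in systemic and 3.85 to 8.03 in mock cells. On systemic 2, where PT8 was at 11.10, CSLD1 was at 3.70. Mock 1 was the highest mock array for both, with CSLD1 at 8.03 and PT8 at 8.69. Arbusculated 2 was the highest arbusculated array for both, with CSLD1 at 6.69 and PT8 at 10.30. The part of root hair cells in the level of PT8 was not tested.

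PT4 (LOC4335115) contributes to phosphate uptake and to its movement within the plant. Its probe set, Os.13467.1.S1_x_at, read 8.89, 8.48 and 8.68 in arbusculated cells. It read 7.10, 7.04 and 6.91 in systemic cells. It read 7.68, 9.02 and 7.05 in mock cells. Arbusculated and systemic cells did not overlap, and mock cells overlapped both, with mock 2 the highest of the 9 arrays and mock 3 at the level of the systemic arrays. PT4 was 1.67 ± 0.44 higher in arbusculated than in systemic cells, a fold of 3.18 (interval 0.67 to 2.68 in log2; adjusted p = 0.126 in limma). It was 0.77 ± 0.44 higher than in mock cells (interval -0.24 to 1.77; adjusted p = 0.421), 1.32 higher without mock 2 (adjusted p = 0.109) and 0.34 higher without mock 3 (adjusted p = 0.708). Systemic differed from mock cells by -0.90 ± 0.44 (adjusted p = 0.969), and by -0.35 without mock 2. In none of the fits did PT4 pass, and the lowest adjusted p over systemic cells was 0.0534, without mock 2. This probe set carries the suffix _x_at, given to sets with probes that match other transcripts, and no other probe set of PT4 stood beside it. Across arrays its r with the interquartile range of the array was 0.75 and with the 3' minus 5' difference 0.60. Their part in the level of PT4 was not tested.

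PT2 (LOC4331637), a low-affinity transporter known for moving phosphate over long distances, was lowest in mock cells. Os.5086.1.S1_at read 6.10, 5.33 and 6.09 in arbusculated, 5.33, 5.33 and 6.83 in systemic and 5.06, 5.02 and 4.61 in mock cells. Both groups from inoculated roots lay above all mock arrays, and they overlapped each other. PT2 was 0.95 ± 0.43 higher in arbusculated than in mock cells (interval -0.03 to 1.93; adjusted p = 0.36), a fold of 1.93. It was 0.94 ± 0.43 higher in systemic than in mock cells (interval -0.04 to 1.92; adjusted p = 0.969). These differences share the mock arrays. Arbusculated and systemic cells differed by 0.01 ± 0.43 (interval -0.97 to 0.99). The value was identical on 3 arrays, arbusculated 2, systemic 1 and systemic 2, as happened on 3 or more arrays for 10.8% of all probe sets. The systemic mean of 5.83 therefore rests on systemic 3, and without it the difference of systemic from mock cells was 0.44.

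PT6 (LOC4346342) takes up phosphate with high affinity and helps carry it to the shoot. Os.50055.1.S1_at read 4.44, 4.31 and 5.07 in arbusculated, 5.60, 4.76 and 5.96 in systemic and 4.74, 8.24 and 5.02 in mock cells. Only mock 2 was high, and all groups overlapped. The difference of arbusculated from mock cells was -1.39 ± 0.84 (interval -3.31 to 0.52; adjusted p = 0.438) and -0.27 without mock 2. The difference of systemic from mock cells was -0.56 ± 0.84 (adjusted p = 0.969), and 0.56 without mock 2, which turns its sign. Between arbusculated and systemic cells PT6 differed by -0.83 ± 0.84 (interval -2.75 to 1.09; adjusted p = 0.544).

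PT1 (LOC4331635) is expressed in roots and shoots also when phosphate is ample. Its brighter probe set, Os.12092.2.S1_a_at, read 8.74, 8.06 and 7.53 in arbusculated, 6.37, 10.39 and 7.35 in systemic and 6.72, 9.57 and 5.75 in mock cells. The range within systemic and within mock cells was wider than any difference between group means, with systemic 2 and mock 2 highest. Differences were 0.77 ± 1.18 for arbusculated against mock (adjusted p = 0.755), 0.69 ± 1.18 for systemic against mock (adjusted p = 0.973) and 0.07 ± 1.18 for arbusculated against systemic cells (adjusted p = 0.973). The intervals, -1.93 to 3.46 for the first of these, leave room for large differences either way. The other probe set of PT1, Os.12092.1.S1_at, stayed between 6.10 and 6.70 on all 9 arrays and did not follow it (r = -0.12).

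PT3 (LOC4348740) lies next to PT8 on chromosome 10, with no protein-coding gene between them in assembly ASM3414082v1. Os.46784.2.A1_at read 6.08, 6.62 and 6.18 in arbusculated, 6.95, 7.20 and 6.88 in systemic and 7.13, 6.70 and 6.77 in mock cells. All arbusculated arrays were below all others. The difference was -0.57 ± 0.23 from mock (interval -1.09 to -0.05; adjusted p = 0.339) and -0.71 ± 0.23 from systemic cells (interval -1.23 to -0.19; adjusted p = 0.146). Os.46784.2.A1_x_at differed by -0.30 from mock and -0.46 from systemic cells, and Os.46784.2.S1_x_at by -0.25 and -0.39, with adjusted p from 0.206 to 0.58. All 3 probe sets of PT3 thus had lower means in arbusculated cells, by less than 1 log2 unit, and none passed. A1 and S1 in a name mark opposite orientations of the design sequence, and the tables used do not give the strand that each set reads.

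PT7 (LOC4331542) and PT12 (LOC4331634) had no call either. Os.50503.1.S2_at of PT7 read 3.25, 3.75 and 2.91 in arbusculated, 3.88, 3.99 and 4.55 in systemic and 4.29, 3.72 and 3.88 in mock cells. It was dim, at percentile 15.3 of the means of all probe sets, and Os.50503.1.S1_at of PT7 was at percentile 3.82. The difference of Os.50503.1.S2_at was -0.65 ± 0.30 from mock (adjusted p = 0.361) and -0.84 ± 0.30 from systemic cells (adjusted p = 0.162), where the groups did not overlap. Os.50503.1.S1_at was between 2.48 and 3.17 on all arrays. Os.54757.1.S1_at of PT12 read 4.59, 5.17 and 5.11 in arbusculated, 5.38, 5.45 and 5.30 in systemic and 5.58, 5.29 and 5.11 in mock cells. PT12 differed by -0.37 ± 0.23 from mock and by -0.42 ± 0.23 from systemic cells (adjusted p of 0.447 and 0.278). PT12, PT1 and PT2 follow one another on chromosome 3 with no protein-coding gene between them, and of these neighbours PT2 alone had inoculated-root cells above mock cells without overlap.

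In arbusculated against mock cells 0 of the 14 probe sets passed in limma and 1 had an unadjusted p under 0.05, where 0.187% of all probe sets passed and 14.2% had such a p. Groups did not overlap for 4 of the 14, 3 of them higher (PT2 and both bright probe sets of PT8) and 1 lower (PT3), where 20.7% of all probe sets had such groups, 6.64% higher and 14% lower. The median difference was -0.24 over the 14, with 5 higher and 9 lower, and -0.12 over all probe sets, of which 41.2% were higher. Genes with several probe sets count more than once among the 14. Over the brightest probe set of each of the 8 genes the median was 0.23, of the opposite sign. In arbusculated against systemic cells 0 of 14 passed and 4 had an unadjusted p under 0.05, where 0.246% passed and 23.9% had such a p. Groups did not overlap for 7 of 14, 1 higher (PT4) and 6 lower (in PT1, PT3, PT7 and PT12). Of all probe sets 32.1% had such groups, 9.39% on the higher and 22.7% on the lower side. PT3 and PT7 each gave more than 1 of the 6, and probe sets of the same gene are not independent. The median was -0.33 over the 14, -0.21 over the brightest probe set of each gene and -0.17 over all probe sets.

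Systemic against mock cells asks whether uncolonised neighbours of arbusculated cells differ from cells of mock roots. In limma 0 of 14 passed and 0 had an unadjusted p under 0.05, where 0% and 4.34% of all probe sets did. Groups did not overlap for PT2 alone, which was higher, where 10.2% of all probe sets had such groups, 6.77% higher and 3.4% lower. The median difference was 0.07, as over all probe sets, and 0.11 over the brightest probe set of each gene. PT4, at -0.90, and PT2, at 0.94, were the largest in size. An F test for any difference among the 3 groups called 0 of 14, and 0.173% of all probe sets. An unadjusted p under 0.05 came from 3 of the 14, in PT4 (0.0147), PT3 (0.0291) and PT7 (0.0496), and from 16.3% of all probe sets.

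**Figure D3:**
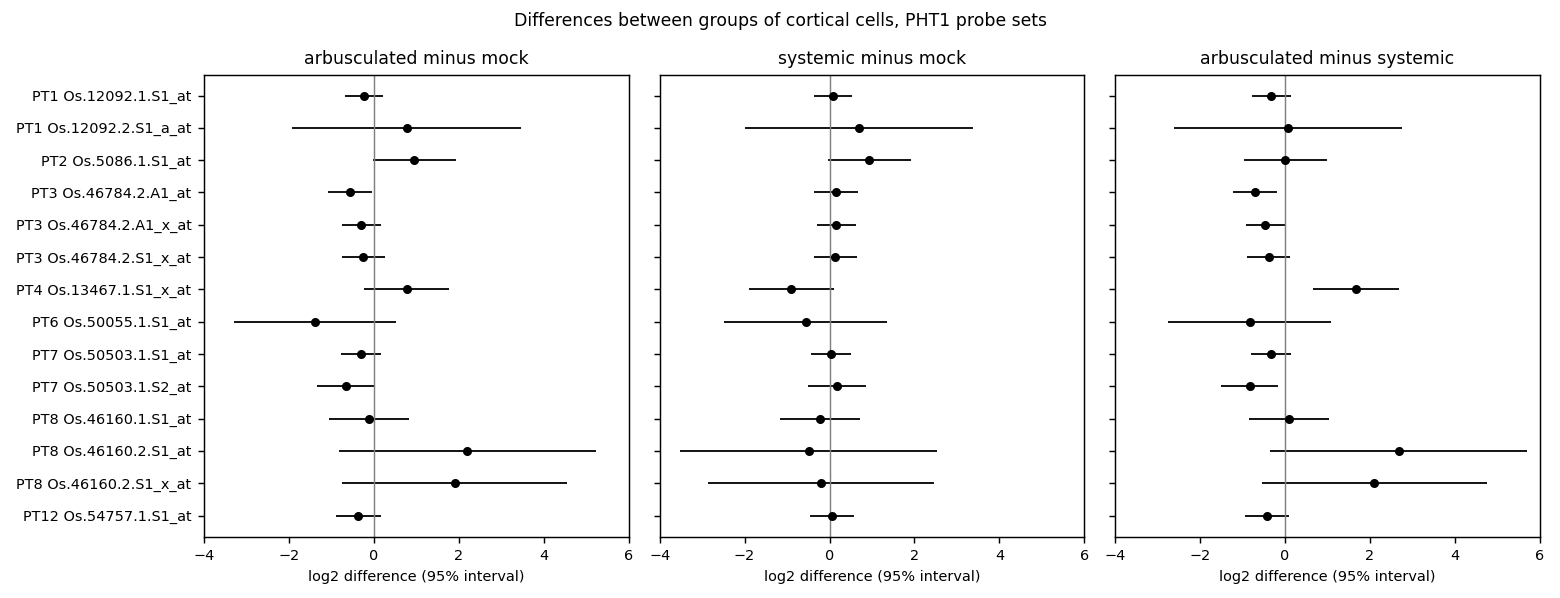
Log2 difference with its 95% interval (x axis) of each of the 14 PHT1 probe sets (y axis) in the 3 comparisons, from 1 fit over 9 arrays with 3 per group. The interval of PT4 is above 0 between arbusculated and systemic cells (0.67 to 2.68), and those of both bright PT8 probe sets span 0 in every comparison.

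All probe sets of PT3, PT7 and PT12 and Os.12092.1.S1_at of PT1, 7 in all, had their lowest mean in arbusculated cells. PT6 also had its lowest mean there, but it ranged over 3.93 log2 units and is not among these 7. The 7 were put together after their values were seen, so what they share describes that choice. They ranged over 0.60 to 1.64 log2 units across the 9 arrays, and the other 7 over 1.38 to 5.94, so the ranges overlap. Their r with one another was 0.60 to 0.95. Their r with the interquartile range of the array was -0.85 to -0.56 and with the 3' minus 5' difference -0.66 to -0.44. For PT6 these were 0.33 and -0.43. The part of these array properties in the lower means was not tested. Among the other 7, no single array was the highest in all: it was systemic 2 for Os.12092.2.S1_a_at of PT1 and for both bright probe sets of PT8, mock 2 for PT6 and PT4, systemic 3 for PT2 and mock 1 for Os.46160.1.S1_at of PT8.

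**Figure D4:**
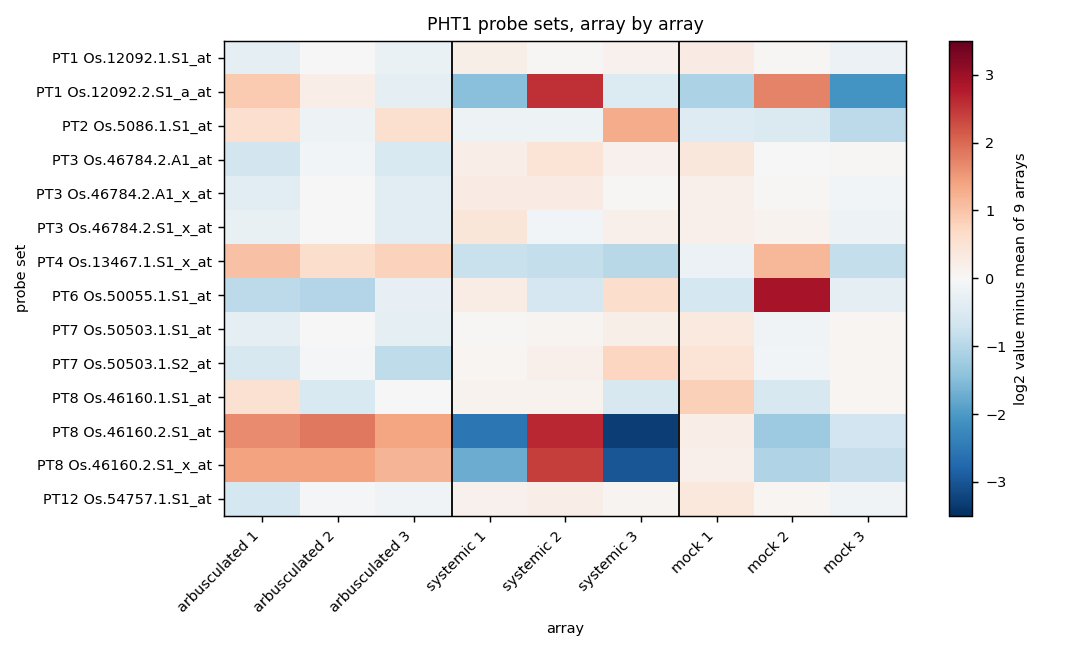
Log2 value of each PHT1 probe set (rows) on each of the 9 arrays (columns, grouped as arbusculated, systemic and mock), shown as the difference from the probe set's mean over all arrays, red for higher and blue for lower. Both bright PT8 probe sets are red on the 3 arbusculated arrays and on systemic 2 and faintly so on mock 1, and PT6 is red on mock 2, at 8.24.

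The genes whose profiles were most like those of PHT1 genes were taken by Pearson r over the 9 arrays, among 2429 genes with an informative name. For PT8 they were CYP701A19 (r = 0.96) and IAA10 (r = 0.94). CYP701A19, named as a cytochrome P450, also read high on systemic 2 (8.60, against 5.82 and 5.31 on the other systemic arrays), and so did IAA10, an Aux/IAA gene (8.57, against 7.32 and 7.27). For PT4 they were HCT1 (r = 0.96) and TBL13 (r = 0.95), and mock 2 was above the other mock arrays in each of these. For PT6 they were IAA31 (r = 0.93) and MADS25 (r = 0.89), whose likeness rests on mock 2, where IAA31 was at 10.91 and at most 6.67 elsewhere. PT1 was nearest to ABH1 (r = 0.92) and wsl3 (r = 0.90), PT2 to KIN5A (r = 0.85) and TFIIB (r = 0.84). The narrow profiles of PT3, PT7 and PT12 were nearest to HAP3I (r = 0.98), GLUB-4 (r = 0.95) and MFT2 (r = 0.95), followed by CPT1, AGO18 and CIN3. With 9 arrays in 3 groups, r of this size describes these arrays and gives no rank to the genes.

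Other genes of phosphate transport and signalling were taken from lists of known names. Of 9 genes of phosphate export and vacuolar transport, 2 were measured, each on its brightest probe set, and 0 passed in any comparison. PHO1-2, which loads phosphate into the xylem in rice, read 8.89, 9.08 and 10.74 in arbusculated, 9.29, 8.01 and 9.28 in systemic and 6.93, 10.71 and 9.76 in mock cells, a difference of 0.44 ± 0.94 from mock (adjusted p = 0.828). PHO1-3 differed by -0.18 ± 0.43 (adjusted p = 0.846). Of 20 regulators and targets of the phosphate starvation response, 8 were measured, the transcription factors PHR1 to PHR3, which switch on PHT1 genes, and the SPX proteins SPX1 to SPX5, which restrain them. None of the 8 passed in any comparison in limma. All 8 had higher means in arbusculated than in mock cells, with a median of 0.62, and than in systemic cells, with a median of 0.85. Over all probe sets, 41.2% were higher than in mock cells and 40.2% higher than in systemic cells. Each of the 8 was read on the gene's brightest probe set, and their shared direction was not tested. In arbusculated cells PHR3 was 0.87 ± 0.53 and SPX2 1.47 ± 0.98 above mock (adjusted p of 0.443 and 0.472). In systemic against mock cells 2 of 8 were higher, with a median of -0.13, where 58.7% of all probe sets were higher. The lists of PHT1 traffic and turnover (6 names) and of plastid and mitochondrial phosphate transporters (14 names) had 0 measured members.

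Markers of other root cell types were read beside these values. The summed log2 level of the 3 cellulose synthases of xylem and sclerenchyma walls was 18.8 to 19.8 in arbusculated, 18.2 to 20.7 in systemic and 21.2 to 24.0 in mock cells. That of the 3 measured endodermis genes was 16.3 to 19.5 in arbusculated, 15.7 to 16.4 in systemic and 14.4 to 17.1 in mock cells. The silicon transporters LSI1 and LSI2 of exodermis and endodermis summed to 18.5 to 24.0 in arbusculated, 19.5 to 21.0 in systemic and 18.9 to 23.2 in mock cells. The phloem transporter SUT1 was 6.28 to 7.21 in arbusculated, 5.98 to 6.80 in systemic and 6.56 to 6.64 in mock cells. Each marker gene was read only on its brightest probe set, also where it had several. On these probe sets no measured marker gene of these lists passed in limma. The part of these cell types in the PHT1 levels was not tested.

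Among the PHT1 genes found by name, PT11 alone had a probe set that passed. On 1 of its 4 probe sets it was 5.00 ± 0.36 higher in arbusculated than in mock cells (adjusted p = 0.00303) and 4.78 ± 0.36 higher than in systemic cells (adjusted p = 0.00381). Of the 3 that did not pass, 1 was 2.01 higher than in mock and 1.83 higher than in systemic cells. The other 2 were lower, by -0.33 and -0.81 against mock and by -0.51 and -1.38 against systemic cells.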

How the data were processed

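RNA of laser-captured cells was hybridised to 9 single-colour arrays with biotin label. Per the submitters' processing notes, the deposited log2 values come from RMA, which combines background correction, quantile normalisation and a summary over each set's probes. Its version is not known here. The values ran from 1.52 to 14.42.

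Of 57381 probe sets, 123 controls (AFFX) were left out and 57258, 64 reporter sets among them, were tested in limma 3.58.1 (R 4.3.3): 1 linear model over all arrays, moderated variances, two-sided tests, Benjamini-Hochberg adjustment over all probe sets per comparison at 0.05. A count of called probe sets is compared with the share called overall. Probe sets were paired with genes through the platform annotation, updated by gene ID (22436 with 1 gene, 95 with several, 34727 with none). A gene's representative is its brightest probe set on average.

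All PHT1 probe sets were named; of each list the members past the threshold, or else the 2 of lowest p in arbusculated against mock cells; and per PHT1 gene the 2 most similar genes. One listed name, VPE1, belongs to another gene in the tables and was left out. Members were matched by gene name, but the family and the lists were chosen with earlier results of these data known. The model was tested on simulated data. Replicate numbers gave no sign of pairing: in 0 of 9 pairs did the correlation of deviations pass 0.1 (-0.29 to 0.04). Such a check cannot show that arrays of the same number shared no plants or batch. Alternatives covered moderation, filters, scaling, arrays used, weights, a replicate block and probe-set averaging.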

Additional observations from a re-analysis of the deposited data

How the results depend on the processing

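No PHT1 probe set was called in arbusculated against mock cells in any of 19 alternatives, nor in systemic against mock cells in any of 19. Between arbusculated and systemic cells 1 was called, Os.46160.2.S1_at of PT8, in 2 of 19: without systemic 2, and without mock 2 and systemic 2 together, an alternative chosen after seeing the data (4.53, adjusted p = 0.0327). The F test called 1 in the same 2 of 18. Leaving out 1 array thus gave 0 to 1 calls, and each of the other 8 such fits gave 0.

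Over all probe sets the 107 calls of arbusculated against mock cells became 67 among the 28629 brighter probe sets, 44 with only the 6 arrays compared, 32 with the replicate block and 66 with probe sets averaged per gene, and lay between 20 and 169 with 1 array left out. The 141 calls of arbusculated against systemic cells became 92 with trend and robust moderation, 11 with 6 arrays, 14 with the replicate block, 77 per gene and 32 without mock 2 and systemic 2, and lay between 25 and 126 with 1 array left out. For systemic against mock cells they lay between 0 and 3. The replicate block called 0 PHT1 probe sets.

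No PHT1 difference was called on all arrays, so every sign that turned belonged to a difference that was not called. With 1 array left out, or mock 2 and systemic 2 together, systemic against mock cells ranged from -0.038 to 0.20 (PT1, Os.12092.1.S1_at), -0.48 to 1.80 (PT1, Os.12092.2.S1_a_at), -0.034 to 0.27 (PT3, Os.46784.2.A1_at), -0.055 to 0.18 (PT12), -1.19 to 0.90 (PT6), -0.088 to 0.16 (PT7, Os.50503.1.S1_at), -0.025 to 0.34 (PT7, Os.50503.1.S2_at), -0.66 to 0.14 (PT8, Os.46160.1.S1_at), -2.69 to 0.63 (PT8, Os.46160.2.S1_at) and -2.05 to 0.90 (PT8, Os.46160.2.S1_x_at). Arbusculated against mock cells ranged from -0.033 to 1.88 (PT1, Os.12092.2.S1_a_at) and -0.45 to 0.24 (PT8, Os.46160.1.S1_at). Arbusculated against systemic cells ranged from -0.76 to 1.25 (PT1, Os.12092.2.S1_a_at), -0.24 to 0.51 (PT2) and -0.17 to 0.36 (PT8, Os.46160.1.S1_at). Further quantile normalisation gave -0.012 for PT7 (Os.50503.1.S1_at, systemic against mock) and -0.10 for PT1 (Os.12092.2.S1_a_at, arbusculated against systemic), and probe-set averaging gave -0.12 for PT1 between arbusculated and systemic cells. Array weights gave 0.092 for PT8 (Os.46160.1.S1_at, arbusculated against mock). The cause of these changes was not tested.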
